A study of Homo sapiens and Mus musculus with 15 samples.

Results

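Transcripts of 8 genes that shape actin-rich cell protrusions were followed through 15 RNA-seq libraries of myeloma lines, drug-naive or resistant to a proteasome inhibitor. The genes are MYO10, FSCN1, ENAH, VASP, EVL, PALLD, LPP and MAP4K4. They are 8 of the 23346 genes in each human table and, under title-case symbols, 8 of the 23329 genes in each mouse table. They were chosen by name with their levels in these libraries already known, so their own differences between groups are given as descriptions and without p-values.

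2 human derivatives and 1 mouse derivative were set against their naive parents, with 3 libraries in each of the 5 groups. Human RPMI-8226 (8226 below), a plasma cell myeloma line, was sampled as carfilzomib-resistant cells kept in 10 nM carfilzomib, as bortezomib-resistant cells kept in 10 nM bortezomib, and as drug-naive cells. Mouse 5TGM1, a myeloma line, was sampled as bortezomib-resistant cells kept in 20 nM bortezomib and as drug-naive cells. Both drugs inhibit the proteasome, resistance was raised by months of culture in climbing doses, and the resistant cells spent 5 days without drug before RNA was taken. Each resistant group is 1 derived line, so resistance, drug and the history of that derivation cannot be told apart. The labels leave it unsaid whether the libraries of a group came from separate cultures. SEs and tests below then measure only the spread between libraries, which may be technical.

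Filopodia are thin protrusions filled with parallel actin filaments. Formins and Ena/VASP proteins lengthen the filaments at the tip, fascin ties them into a bundle, and myosin 10 walks along the bundle to its end carrying integrins and other cargo. Zyxin-type LIM proteins and palladin organise actin at adhesions and stress fibres, and kinases such as MAP4K4 act on adhesion turnover and cell shape. Plasma cells home to and lodge in the bone marrow through integrins and other adhesion molecules that connect to actin.

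Libraries held 31709636 to 58419576 gene reads in 8226 and 49097494 to 72288680 in 5TGM1, and the bortezomib-resistant 8226 libraries were the shallowest at 31709636 to 34339788. Reads that fell outside genes made up 10.8% to 12.8% in carfilzomib-resistant, 14.9% to 16.6% in bortezomib-resistant and 10.4% to 12.9% in naive 8226 libraries, and the part of this difference in the results below was not tested. Of the plasma cell markers, 10 of 10 in carfilzomib-resistant 8226, 9 of 10 in bortezomib-resistant 8226 and 10 of 10 in naive 8226 reached 1 CPM, as did 8 of 9 in both 5TGM1 groups, where CD38 did not. Their summed level was 5754.9 to 5960.5 CPM in carfilzomib-resistant 8226, 3884.8 to 4024.5 CPM in bortezomib-resistant 8226 and 8620.6 to 9795.7 CPM in naive 8226. IGJ made up the largest part of each sum, at 4287, 2220 and 6893 CPM in those groups. With bortezomib resistance TNFRSF17, IRF4 and CD38 rose and the other 7 markers fell. With carfilzomib resistance CD38 and SLAMF7 rose and the other 8 fell. The 14 fibroblast and mesenchymal markers, from cells known for stress fibres and adhesions, summed to 4.56 to 4.62 CPM in carfilzomib-resistant, 7.45 to 8.003 CPM in bortezomib-resistant and 16.3 to 16.5 CPM in naive 8226. DCN, LUM and POSTN had 0 counts in all 9 libraries. Single markers moved in both directions within this sum. COL5A1 stood at 0.0628, 0.0183 and 12.4 CPM in carfilzomib-resistant, bortezomib-resistant and naive 8226. ACTA2, a smooth-muscle actin, stood at 2.92, 6.40 and 0.281 CPM in those groups. The macrophage markers summed to 22.3 to 22.7 CPM in carfilzomib-resistant, 48.9 to 52.5 CPM in bortezomib-resistant and 52.6 to 58.6 CPM in naive 8226, and the endothelial and epithelial markers to 263 to 273 CPM, 230.0 to 244 CPM and 302 to 316 CPM in those groups. These sums also hide opposite moves. In the same order of groups, CD68 stood at 13.7, 8.63 and 48.3 CPM. AIF1 stood at 2.22, 25.2 and 2.96 CPM, and EMR1 at 6.38, 16.7 and 0.529 CPM. EPCAM stood at 93.6, 46.0 and 166 CPM, and KRT18 at 168, 185 and 134 CPM. In 5TGM1 the fibroblast and mesenchymal markers summed to at most 2.34 CPM in resistant and 2.72 to 3.09 CPM in naive libraries. There the plasma cell markers summed to 8999 to 9378 CPM in resistant and 6621 to 6873 CPM in naive libraries, the macrophage markers to 377 to 426 CPM in resistant and 284 to 287 CPM in naive libraries, and the endothelial and epithelial markers to 353 to 360.2 CPM in resistant and 329 to 337 CPM in naive libraries. The part of these markers in the results below was not tested. In such bulk RNA, fewer cells carrying a transcript and less of it per cell cannot be told apart. CPM are read counts relative to library size, with library sizes scaled by TMM, a method that evens out differences in RNA composition, and levels are mean ± SD over 3 libraries unless single libraries are listed. The human and mouse tables were normalised separately, so levels are not ranked across the lines.

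MYO10 and ENAH are the members with no read at all in bortezomib-resistant 8226. Their promoters are shown with that of MAP4K4, which was high in both resistant 8226 lines. Starts whose transcripts changed in opposite directions with bortezomib resistance can so be compared. With carfilzomib resistance ENAH rose, as MAP4K4 did, and MYO10 fell. Each window runs from 250 bases before to 50 bases after an annotated start (RefSeq, GRCh38.p14, written 5′ to 3′ on the gene's strand). Capitals mark the GC box, searched as GGGCGG on either strand, so that the reverse strand reads CCGCCC. MYO10 lies on the minus strand at chr5:16936239-16936538, ENAH on the minus strand at chr1:225653074-225653373, and this MAP4K4 window, 1 of 2 annotated, on the plus strand at chr2:101697457-101697756.
MYO10: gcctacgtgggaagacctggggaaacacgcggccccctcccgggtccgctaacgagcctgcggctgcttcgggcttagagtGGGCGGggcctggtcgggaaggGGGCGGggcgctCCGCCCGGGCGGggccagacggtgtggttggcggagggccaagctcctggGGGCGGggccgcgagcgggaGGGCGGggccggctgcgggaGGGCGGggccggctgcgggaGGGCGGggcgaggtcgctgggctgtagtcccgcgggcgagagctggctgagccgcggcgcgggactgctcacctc
ENAH: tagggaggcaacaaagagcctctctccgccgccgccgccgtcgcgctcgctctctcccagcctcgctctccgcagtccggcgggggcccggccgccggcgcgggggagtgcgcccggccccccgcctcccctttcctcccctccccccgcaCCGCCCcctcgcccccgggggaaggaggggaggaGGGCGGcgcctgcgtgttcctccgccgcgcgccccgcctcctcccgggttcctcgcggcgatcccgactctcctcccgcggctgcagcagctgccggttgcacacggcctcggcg
MAP4K4: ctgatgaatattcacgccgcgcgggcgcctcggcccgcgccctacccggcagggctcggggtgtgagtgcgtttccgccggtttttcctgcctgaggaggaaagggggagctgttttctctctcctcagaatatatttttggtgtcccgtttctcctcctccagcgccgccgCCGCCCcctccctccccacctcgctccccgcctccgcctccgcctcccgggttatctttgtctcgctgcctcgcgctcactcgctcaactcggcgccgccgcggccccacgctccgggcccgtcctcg
The MYO10 window holds 8 GC boxes, a number reached by 285 of 35116 human promoter windows (0.812%), and at least 1 GC box is found in 45.0% of windows. ENAH holds 2, and MAP4K4 holds 1 in the window printed and 2 in its other annotated window. All 3 windows are rich in CpG, with 37 in MYO10, 43 in ENAH and 36 in MAP4K4 against a median of 14 over all windows. A match to these letters describes the sequence and is not evidence of a bound factor. RefSeq windows were found for 7 of the 8 genes.

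Across the 8 genes, levels in 8226 moved by large factors and not in 1 direction. Genes with an adjusted p below 0.05 are referred to as called (quasi-likelihood test of edgeR, Benjamini-Hochberg over all tested genes). Between carfilzomib-resistant and naive 8226, 4 of the 8 were higher and 3 lower by that call, where 71.7% of all 13910 genes were called (35.0% higher, 36.7% lower). Between bortezomib-resistant and naive 8226, 5 were higher and 3 lower, where 79.8% of genes were called (38.2% higher, 41.6% lower). Since the genes were picked with these contrasts in view, nothing is read from the counts. In each of these contrasts 6 of the 8 changed at least 16-fold, where 7.69% of all genes did so with carfilzomib resistance and 11.6% with bortezomib resistance. The median log2 fold change of the 8 was 0.43 with carfilzomib resistance and 0.97 with bortezomib resistance, beside 0.00 and -0.03 over all genes tested, and fitted values of genes at 0 counts enter these medians.

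**Figure D1:**
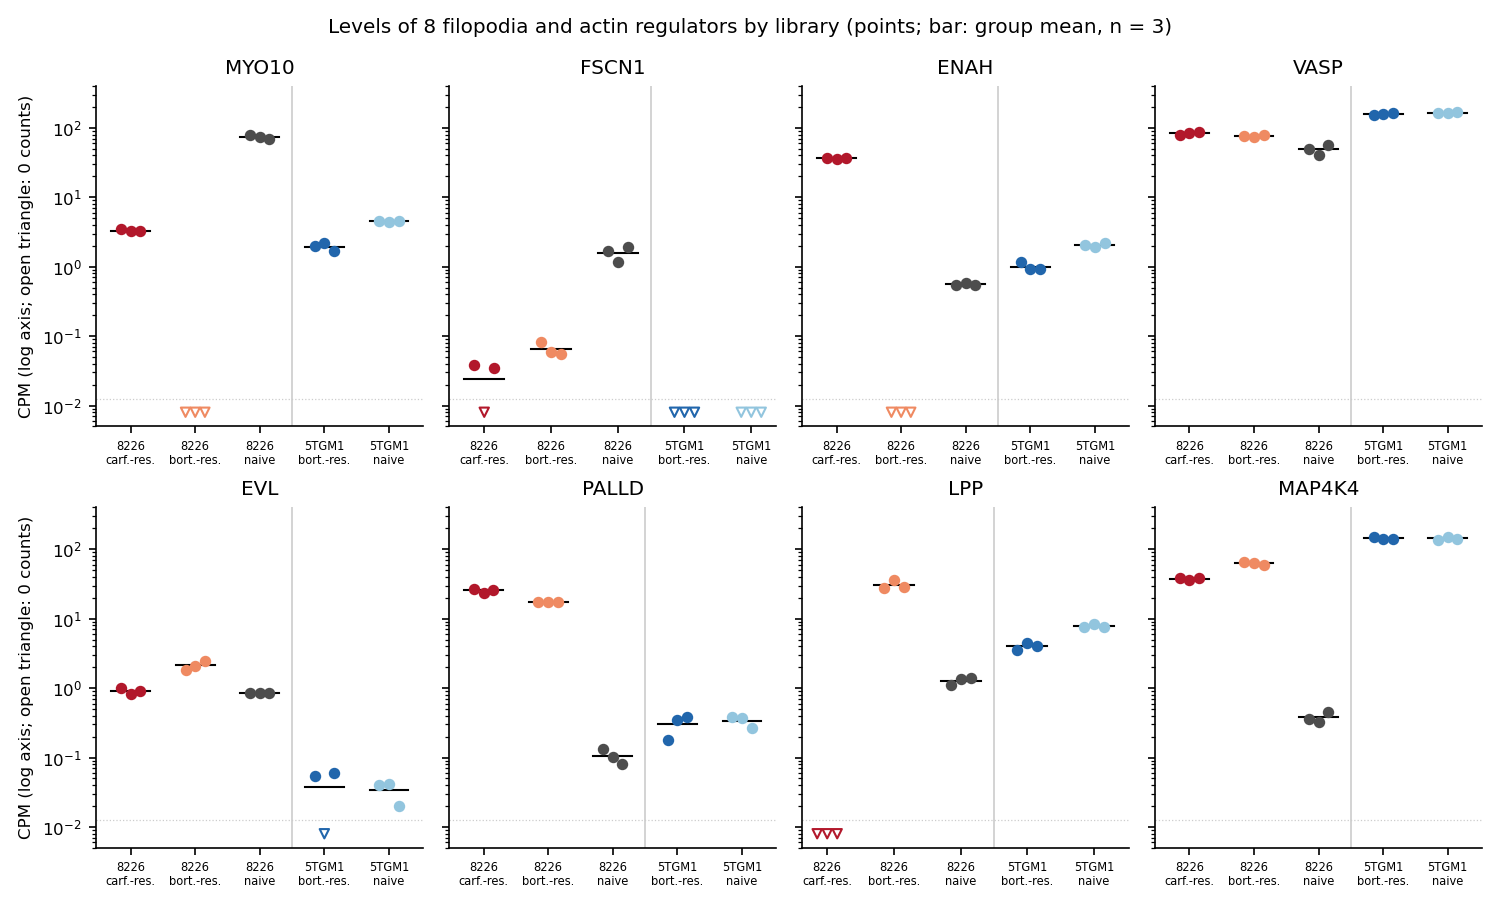
Level of each gene in each library in CPM on a log axis, with the 3 carfilzomib-resistant, 3 bortezomib-resistant and 3 naive 8226 libraries left of the grey line and the 3 bortezomib-resistant and 3 naive 5TGM1 libraries right of it. Points are libraries, bars are group means, and open triangles below the dotted line are libraries with 0 counts, as all 3 bortezomib-resistant 8226 libraries have for MYO10 and ENAH and all 3 carfilzomib-resistant ones for LPP.

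Transcript of the motor at the filopodium tip was absent or low in both resistant 8226 lines. MYO10 stood at 3.44, 3.21 and 3.25 CPM in carfilzomib-resistant libraries, at 0 counts in all 3 bortezomib-resistant libraries, and at 79.2, 74.2 and 69.5 CPM in naive libraries. The 3 groups do not overlap, and naive libraries are far above the rest. The carfilzomib-resistant level was 22.6-fold below naive (log2 fold change -4.49 ± 0.0823 SE). Taking 3 counts over the group as the limit that 0 counts allow (0.0279 CPM), the bortezomib-resistant level was at least 2673-fold below naive and at least 118-fold below carfilzomib-resistant 8226. Such limits, and all counting intervals below, cover counting error only. Of the 13910 genes tested, 50 (0.359%) had 0 counts in bortezomib-resistant 8226 and at least 10 CPM in naive 8226, and MYO10 is 1 of them.

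FSCN1, the fascin that bundles filopodial actin, was likewise highest in naive cells, at a much lower level. Its libraries held 0.0380, 0 and 0.0348 CPM in carfilzomib-resistant 8226, 0.0817, 0.0584 and 0.0548 CPM in bortezomib-resistant 8226, and 1.68, 1.16 and 1.92 CPM in naive 8226. All 6 resistant libraries are below all 3 naive ones, and the resistant values rest on 4 counts over the carfilzomib-resistant group and 7 over the bortezomib-resistant group, against 192 in naive libraries. The carfilzomib-resistant level was 60.1-fold below naive (counting interval 23.1 to 223), and the bortezomib-resistant level 24.3-fold below (11.6 to 61.4). Between the resistant lines FSCN1 was not called (-1.22 ± 0.868, carfilzomib-resistant minus bortezomib-resistant). Counted without regard to strand, the log2 fold changes were -5.04 with carfilzomib and -3.71 with bortezomib resistance. The other fascin genes were rare as well. FSCN2, the retinal form, stood at 0.233 ± 0.108 CPM in carfilzomib-resistant, 0.0830 ± 0.0713 CPM in bortezomib-resistant and 0.146 ± 0.0496 CPM in naive 8226, and FSCN3, the testis form, had 1 count in carfilzomib-resistant and 0 in the other 8226 groups.

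ENAH, which encodes Mena, separated the resistant lines from each other. Its level was 37.3, 36.1 and 36.8 CPM in carfilzomib-resistant libraries, 0 counts in every bortezomib-resistant library, and 0.538, 0.580 and 0.542 CPM in naive libraries. Carfilzomib-resistant libraries are high, naive libraries low but read in every library (67 counts in all), and the groups do not overlap. The carfilzomib-resistant level was 66.5-fold above naive (6.05 ± 0.104), and the bortezomib-resistant level at least 19.8-fold below it. Between the resistant lines ENAH was at least 1318-fold higher in carfilzomib-resistant cells. Of all genes tested, 37 (0.266%) had 0 counts in bortezomib-resistant 8226 with at least 10 CPM in carfilzomib-resistant 8226.

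VASP, the family member best known from platelets and blood cells, was present in quantity in every library. It stood at 79.4, 84.4 and 86.0 CPM in carfilzomib-resistant, 75.2, 73.1 and 80.0 CPM in bortezomib-resistant, and 50.3, 41.1 and 57.2 CPM in naive 8226. All resistant libraries are above all naive ones, and the resistant groups overlap each other. The change was 0.75 ± 0.0888 with carfilzomib resistance and 0.62 ± 0.0895 with bortezomib resistance. Between the resistant lines VASP was not called (0.13 ± 0.0877), although it was called without naive replicate 2 (0.13) and in a fit of the 6 resistant libraries alone (0.13).

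EVL, the third Ena/VASP gene, was a minor transcript throughout. It measured 1.01, 0.821 and 0.904 CPM in carfilzomib-resistant, 1.85, 2.07 and 2.44 CPM in bortezomib-resistant, and 0.852, 0.858 and 0.840 CPM in naive 8226. Bortezomib-resistant libraries are above the rest, and the carfilzomib-resistant libraries spread on both sides of the naive ones. The change was 0.11 ± 0.180 with carfilzomib resistance, which was not called, and 1.32 ± 0.164 with bortezomib resistance.

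Per kilobase of exon, the scale on which levels of different genes can be compared, VASP was the main Ena/VASP transcript in each 8226 group. VASP measured 36.1 ± 1.49 CPM per kilobase in carfilzomib-resistant, 33.0 ± 1.54 in bortezomib-resistant and 21.5 ± 3.49 in naive cells. ENAH measured 2.65 ± 0.0444 CPM per kilobase in carfilzomib-resistant cells and 0.0399 ± 0.00167 in naive cells. ENAH thus made up 6.81% of the summed Ena/VASP level in carfilzomib-resistant cells and 0.184% in naive cells, with 92.8% and 99.2% from VASP in the same groups. In bortezomib-resistant cells VASP made up 99.0% and EVL 0.980%. Exon lengths came from a GENCODE annotation that need not be the one used for counting.

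**Figure D2:**
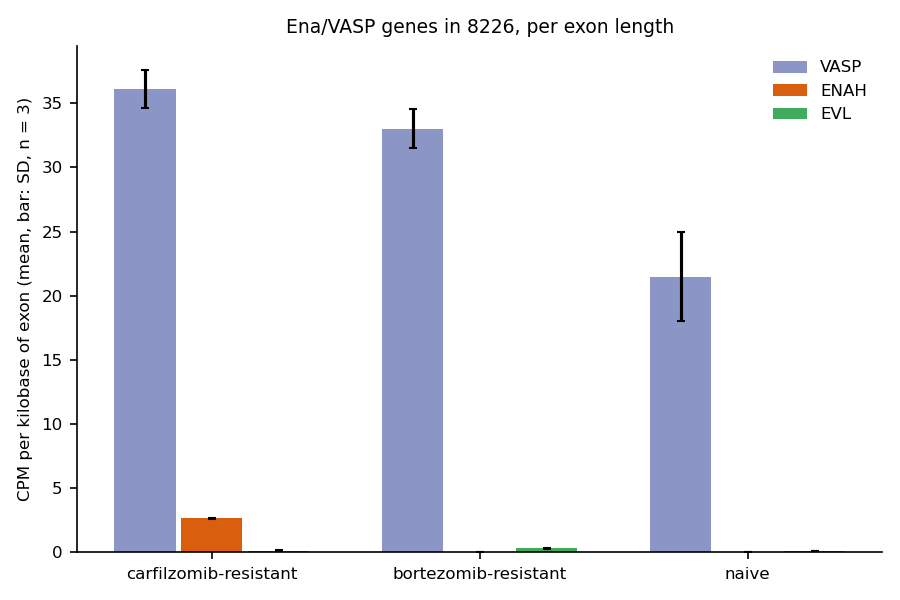
Mean level per kilobase of exon of VASP, ENAH and EVL in carfilzomib-resistant, bortezomib-resistant and naive 8226, with SD over 3 libraries as error bars. VASP is the tallest bar in each group, and ENAH is visible on this scale in carfilzomib-resistant cells alone, at 2.65 CPM per kilobase.

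Palladin was almost unread in naive 8226 and plentiful in both resistant lines. PALLD, a scaffold that crosslinks actin in stress fibres, stood at 26.6, 23.7 and 26.3 CPM in carfilzomib-resistant, 17.1, 17.5 and 17.2 CPM in bortezomib-resistant, and 0.135, 0.101 and 0.0813 CPM in naive libraries. The groups do not overlap, and the naive values rest on 13 counts in all. The carfilzomib-resistant level was 239-fold above naive (counting interval 139.7 to 449.8, log2 fold change 7.86 ± 0.143), and the bortezomib-resistant level 161-fold above it (93.8 to 303, 7.29 ± 0.151). Counted without regard to strand, these log2 fold changes were 6.94 and 6.39. Of its relatives with like immunoglobulin domains, myotilin (MYOT) and myopalladin (MYPN), both muscle proteins, had 0 counts in all 9 human libraries.

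LPP, a zyxin-type LIM protein that binds Ena/VASP proteins at adhesions, showed the reverse of ENAH across the resistant lines. It had 0 counts in all 3 carfilzomib-resistant libraries, and stood at 27.7, 36.0 and 28.96 CPM in bortezomib-resistant and 1.12, 1.34 and 1.38 CPM in naive libraries. Bortezomib-resistant libraries are high, naive libraries low, and the groups do not overlap. The bortezomib-resistant level was 24.2-fold above naive (4.60 ± 0.136). With 0.0198 CPM as the limit that 0 counts over the group allow, LPP was at least 64.3-fold lower in carfilzomib-resistant than in naive cells and at least 1554-fold lower than in bortezomib-resistant cells. The fitted log2 fold changes of these contrasts, which depend on how 0 counts are handled, were -8.75 and -13.35. Counted without regard to strand, they were -6.32 and -10.90, so their size depends on the count used. Of all genes tested, 9 (0.0647%) had 0 counts in carfilzomib-resistant 8226 with at least 10 CPM in bortezomib-resistant 8226.

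Its relatives in the zyxin family moved otherwise. ZYX, the family's namesake, was at 6.90 ± 0.379 CPM in carfilzomib-resistant, 1.26 ± 0.238 CPM in bortezomib-resistant and 17.9 ± 1.59 CPM in naive 8226. It was lower in both resistant lines (-1.37 ± 0.0922 and -3.82 ± 0.124). LIMD1, which shuttles between adhesions and the nucleus, was at 121 ± 2.34 CPM in carfilzomib-resistant, 79.7 ± 0.766 CPM in bortezomib-resistant and 129 ± 11.0 CPM in naive 8226, and only the bortezomib-resistant change was called (-0.70 ± 0.0597). TRIP6 rose slightly in both, by 0.32 ± 0.0942 and 0.24 ± 0.0964.

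MAP4K4, a kinase upstream of JNK and of the Hippo pathway, was near 0 in naive 8226 and high in both resistant lines, as palladin was. It stood at 39.1, 35.7 and 38.0 CPM in carfilzomib-resistant, 64.8, 63.6 and 59.7 CPM in bortezomib-resistant, and 0.359, 0.328 and 0.461 CPM in naive libraries. Naive libraries are lowest, bortezomib-resistant ones highest, and the groups do not overlap. The carfilzomib-resistant level was 99.4-fold above naive (6.62 ± 0.111) and the bortezomib-resistant level 165-fold above it (7.36 ± 0.109). PALLD and MAP4K4 are among 13 of the 13910 genes (0.0935%) that lay under 0.5 CPM in naive and reached 10 CPM in both resistant 8226 lines. The closely related kinases were read in naive cells too. MINK1 stood at 69.3 ± 1.66 CPM in carfilzomib-resistant, 54.5 ± 4.08 CPM in bortezomib-resistant and 55.2 ± 3.80 CPM in naive 8226, and TNIK at 13.3 ± 1.14 CPM in carfilzomib-resistant, 6.33 ± 0.327 CPM in bortezomib-resistant and 4.50 ± 0.526 CPM in naive 8226.

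Between the resistant 8226 lines, carfilzomib-resistant over bortezomib-resistant, 3 of the 8 were higher and 3 lower by the call, where 76.9% of all genes were called (39.9% higher, 37.0% lower). MYO10, ENAH and PALLD (0.57 ± 0.0689) were higher in carfilzomib-resistant cells, and LPP, EVL (-1.21 ± 0.155) and MAP4K4 (-0.74 ± 0.0611) were lower. MYO10, ENAH and LPP differed by at least 16-fold, as did 8.52% of all genes. On the scale per kilobase of exon, the order of the members in carfilzomib-resistant cells was VASP, MAP4K4 (4.69 CPM per kilobase), PALLD (3.67), ENAH (2.65) and MYO10 (0.252). In bortezomib-resistant cells it was VASP, MAP4K4 (7.82), PALLD (2.48), LPP (1.35) and EVL (0.327), and in naive cells VASP was followed by MYO10 (5.66) and FSCN1 (0.572), with EVL next at 0.131.

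**Figure D3:**
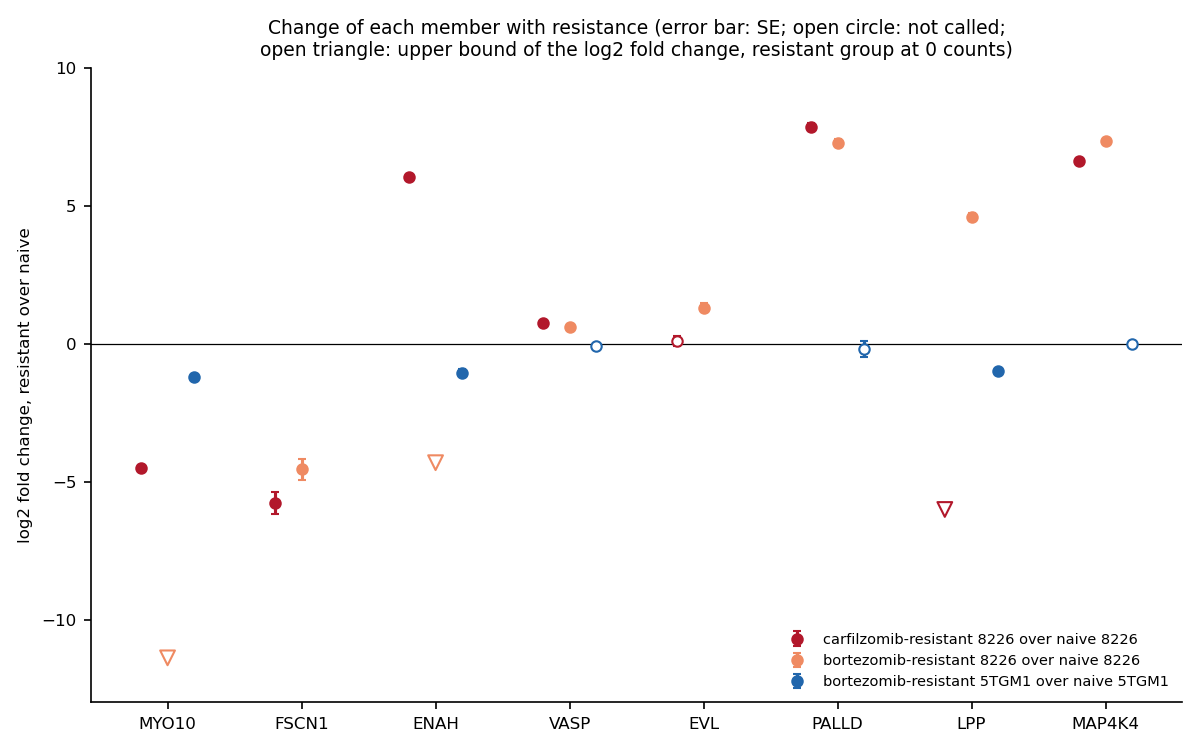
Log2 fold change of each gene, resistant over naive, in carfilzomib-resistant 8226, bortezomib-resistant 8226 and bortezomib-resistant 5TGM1, with SE as error bars. Filled points were called and open circles were not, and open triangles are upper bounds where the resistant group had 0 counts; PALLD and MAP4K4 are above 6 in both 8226 contrasts and near 0 in 5TGM1.

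In mouse 5TGM1 the changes with bortezomib resistance were small. Of the 6 members tested, 3 were lower and the other 3 were not called, where 67.2% of all 11974 genes were called (34.0% higher, 33.2% lower), and their median log2 fold change was -0.59 beside 0.00 over all genes. None of the 6 changed 16-fold, as 0.768% of all genes did. Myo10 stood at 1.96, 2.19 and 1.66 CPM in resistant and 4.51, 4.41 and 4.51 CPM in naive libraries, without overlap (-1.20 ± 0.103, 2.29-fold lower). Enah stood at 1.15, 0.919 and 0.913 CPM in resistant and 2.05, 1.93 and 2.22 CPM in naive libraries (-1.04 ± 0.137), and Lpp at 3.53, 4.44 and 3.996 CPM in resistant and 7.54, 8.47 and 7.57 CPM in naive libraries (-0.98 ± 0.0890). For both genes all resistant libraries lie below all naive ones.

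The other mouse members did not pass the test. Vasp was at 158 ± 5.64 CPM in resistant and 166 ± 3.97 CPM in naive 5TGM1 (-0.07 ± 0.0415), and Map4k4, which unlike its human counterpart was plentiful before resistance, at 144 ± 3.32 CPM in resistant and 144 ± 6.72 CPM in naive cells (0.00 ± 0.0434). Palld was a rare transcript, at 0.304 ± 0.109 CPM in resistant and 0.341 ± 0.0663 CPM in naive cells (-0.19 ± 0.297). Evl had 6 counts in either group and Fscn1 had 0 counts in all 6 libraries, so neither was tested.

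The change with bortezomib resistance was then compared between the lines themselves, over the 11847 tested genes whose symbols match in human and mouse, which is not an orthology table. The test of the difference passed for 6 of the 7 members with reads in both lines, where 64.9% of all such genes passed (31.4% higher and 33.5% lower in 8226). The members were picked with these data known, so nothing is read from that count. Differences of at least 16-fold, seen in 10.3% of these genes, were found for MYO10, PALLD, LPP and MAP4K4, and for ENAH in the fitted value alone. The change in 8226 exceeded that in 5TGM1 by 7.51 ± 0.401 for PALLD, by 7.37 ± 0.120 for MAP4K4, by 5.60 ± 0.173 for LPP and by 0.71 ± 0.111 for VASP on the log2 scale. For MYO10 and ENAH the fitted differences, -13.51 and -6.60, depend on how 0 counts are handled in the fit, and the change in 8226 is bounded at -11.38 or lower for MYO10 and -4.31 or lower for ENAH, beside -1.20 and -1.04 in 5TGM1. LPP is the gene whose called changes had opposite signs in the lines. EVL did not pass (1.27 ± 0.867).

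Some genes elsewhere in the genome had nearly the same profile over the 9 human libraries. Likeness was the root mean square difference of log2 CPM, each gene centred on its own mean, over 9765 genes that reached 10 CPM in some group; the libraries of a group share their derivation, and no test applies. The genes nearest to MYO10 were S100A6 (0.55), CDS1 (0.56) and AFAP1L2 (0.66), and S100A6, a calcium-binding protein, stood at 7.96 CPM in carfilzomib-resistant, 0.0727 CPM in bortezomib-resistant and 149.7 CPM in naive cells. Among those nearest to ENAH were MAGEB1 (0.25) and FHAD1 (0.39), and FHAD1 stood at 55.4 CPM in carfilzomib-resistant, 0.0474 CPM in bortezomib-resistant and 0.974 CPM in naive cells. Nearest to PALLD were ZNF462 (0.31), UTS2 (0.50) and PERP (0.53), and PERP, a desmosome-associated membrane protein, stood at 60.0 CPM in carfilzomib-resistant, 61.6 CPM in bortezomib-resistant and 0.182 CPM in naive cells.

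Neighbouring genes were read as well, 3 protein-coding genes on each side in RefSeq order. Of 35 such neighbours tested, 5 changed at least 16-fold with carfilzomib resistance and 8 with bortezomib resistance, by fitted values. For genes at 0 counts these values depend on the fit. FAM134B, with 0 counts in bortezomib-resistant and 53 counts in naive cells, is among the 8. Over all genes tested, 7.69% and 11.6% did so. Around MYO10, genes on either side were also lower in the resistant lines. BASP1, a membrane-bound growth cone protein and the next gene, had 0 counts in carfilzomib-resistant and 3 in bortezomib-resistant cells against 16.4 CPM in naive cells. CDH18, a cadherin and the next after it, had 0 counts in both resistant lines against 9.19 CPM in naive cells. ZNF622, the second gene on the other side, stood at 36.9, 33.8 and 31.7 CPM in carfilzomib-resistant, bortezomib-resistant and naive cells, and FAM134B, between it and MYO10, at 0.0594 CPM, 0 counts and 0.441 CPM in those groups.

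Around ENAH, all 6 neighbours were read in every group and none changed 16-fold in any contrast, and the adjacent LBR and SRP9 stood at 470.0 and 327 CPM in carfilzomib-resistant, 393 and 344 CPM in bortezomib-resistant, and 687 and 353 CPM in naive cells. Around LPP, BCL6 and TPRG1, the adjacent genes with reads, were present in carfilzomib-resistant cells at 3.20 and 0.327 CPM, where LPP had 0 counts. TP63, a p53-family transcription factor gene lying beyond TPRG1, was high with LPP in bortezomib-resistant cells, at 0.0703 CPM in carfilzomib-resistant, 22.0 CPM in bortezomib-resistant and 0.0498 CPM in naive cells. LEPREL1, the next, was low there, at 16.3 CPM in carfilzomib-resistant, 0.103 CPM in bortezomib-resistant and 11.6 CPM in naive cells. Around PALLD, the gene on one side was nearly unread in bortezomib-resistant cells: DDX60L stood at 6.12 CPM in carfilzomib-resistant cells, 2 counts over the bortezomib-resistant group and 0.392 CPM in naive cells. DDX60, next to it, stood at 3.64 CPM in carfilzomib-resistant, 14.3 CPM in bortezomib-resistant and 1.37 CPM in naive cells. On the other side, SH3RF1 was higher in both resistant lines at 9.34 CPM in carfilzomib-resistant and 15.7 CPM in bortezomib-resistant against 1.49 CPM in naive cells, and CBR4, which lies between PALLD and SH3RF1, stood at 25.6 CPM in carfilzomib-resistant, 48.1 CPM in bortezomib-resistant and 20.2 CPM in naive cells.

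**Figure D4:**
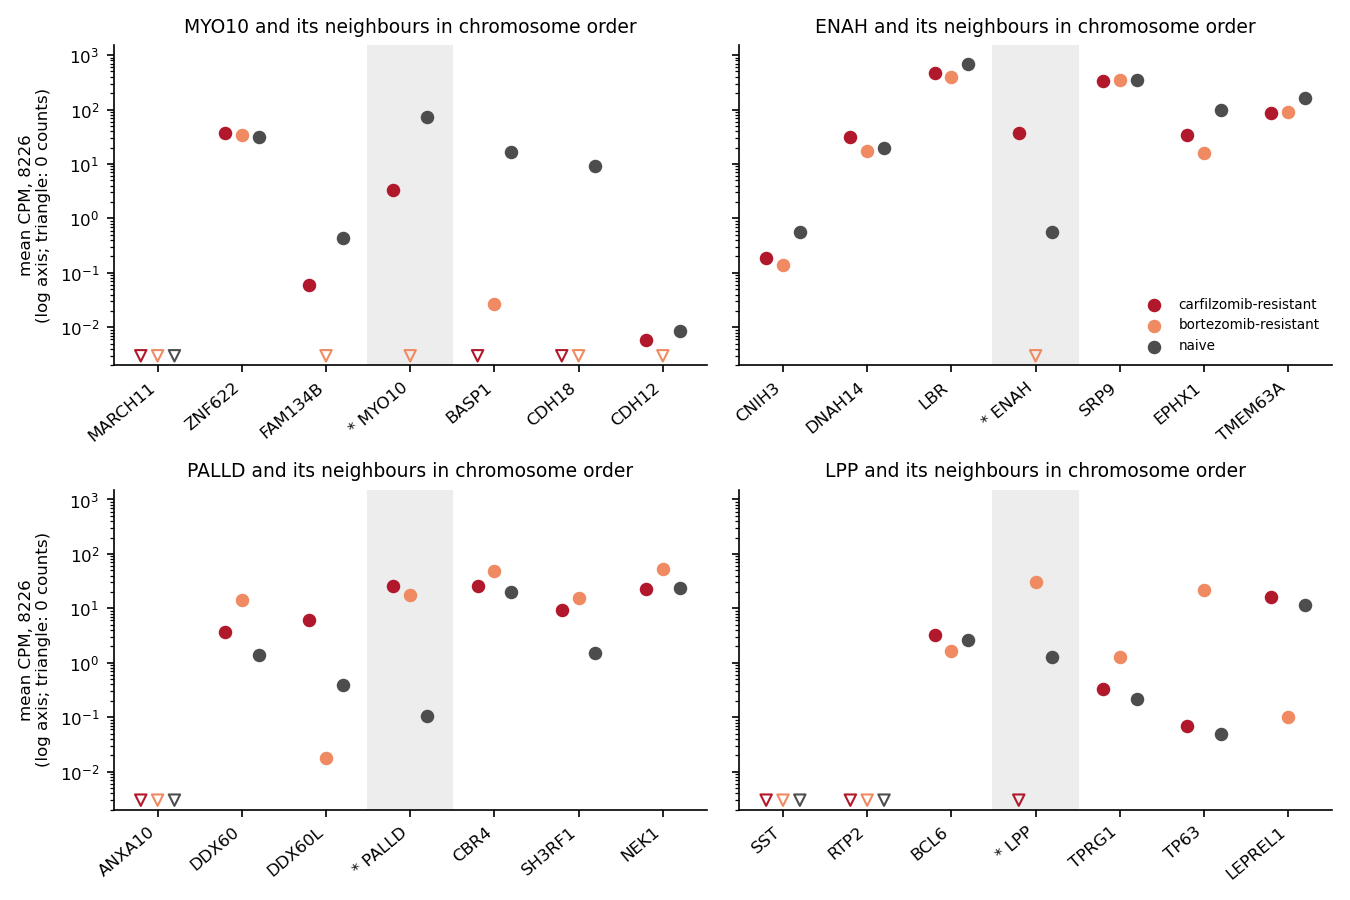
Mean CPM on a log axis of MYO10, ENAH, PALLD and LPP (shaded, starred) and of 3 protein-coding genes on each side in chromosome order, in carfilzomib-resistant, bortezomib-resistant and naive 8226, with 0 counts as open triangles. BASP1 and CDH18 beside MYO10 are at or near 0 counts in both resistant lines, and the neighbours of ENAH are read in all 3 groups.

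Other genes in 8226 were taken from 7 lists by role, with 162 tested genes. The last list, with 22 tested MAP4K kinases and JNK or Hippo partners, is not one of actin genes and enters these pooled values. Of the 162 genes, 87 rose and 46 fell with carfilzomib resistance (82.1% called), beside 71.7% of all genes called. With bortezomib resistance 68 rose and 69 fell (84.6%), beside 79.8% of all genes. The median log2 fold change of the 162 was 0.21 with carfilzomib and -0.01 with bortezomib resistance. At least 16-fold changes were seen in 14 (8.64%) with carfilzomib resistance and 26 (16.05%) with bortezomib resistance. Of all genes tested, 7.69% and 11.6% changed as much. Scaled by library size alone, the median of all genes with bortezomib resistance was 0.16 in place of -0.03, and 58.7% of its calls were higher in place of 47.9%, and the difference between the lines shifted alike, with 58.9% of calls higher in place of 48.3%.

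Among 27 tested genes of filopodia formation, 14 rose and 10 fell with carfilzomib resistance, and 12 rose and 13 fell with bortezomib resistance (medians 0.23 and -0.01). Of all genes tested, 35.0% rose and 36.7% fell with carfilzomib resistance, and 38.2% rose and 41.6% fell with bortezomib resistance. These shares stand beside each list count for 8226 below, and nothing is read from the counts. Apart from relatives of the members, the genes named were picked for the size of their change. CDC42EP1, an effector of the GTPase CDC42, had 0 counts in both resistant lines against 12.0 ± 1.73 CPM in naive cells. PAK1, a kinase activated by CDC42 and RAC, rose with carfilzomib resistance to 29.7 ± 1.99 CPM against 0.688 ± 0.0945 CPM in naive cells (5.42 ± 0.110). BAIAP2, the membrane-bending IRSp53, fell in the same contrast to 1.00 ± 0.103 CPM against 22.0 ± 2.84 CPM. With bortezomib resistance the formin gene DIAPH2 rose to 14.6 ± 0.828 CPM against 0.181 ± 0.0196 CPM in naive cells, and the netrin receptor gene DCC to 12.2 ± 1.32 CPM against 2 counts over the naive group. FMN1, another formin gene, stood at 19.3 ± 1.45 CPM in carfilzomib-resistant, 0.520 ± 0.0698 CPM in bortezomib-resistant and 26.1 ± 2.76 CPM in naive cells.

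Of 22 bundling and crosslinking genes, 14 rose and 4 fell with carfilzomib resistance, and 11 rose and 9 fell with bortezomib resistance (medians 0.34 and 0.13). PLS3, a plastin that bundles actin as fascin does, rose in both, to 109 ± 3.89 CPM in carfilzomib-resistant and 429 ± 23.2 CPM in bortezomib-resistant cells against 5.37 ± 0.605 CPM in naive cells (4.33 ± 0.0788 and 6.31 ± 0.0824). CNN3, a calponin, stood at 66.0 ± 2.04 CPM in carfilzomib-resistant, 0.120 ± 0.0674 CPM in bortezomib-resistant and 0.716 ± 0.0969 CPM in naive cells, the order seen for ENAH. HCLS1, the blood-cell form of cortactin, fell in bortezomib-resistant cells to 0.193 ± 0.163 CPM against 323 ± 27.5 CPM in naive cells. CTTN, cortactin itself, stood at 14.5 ± 0.347 CPM in carfilzomib-resistant, 130.7 ± 2.42 CPM in bortezomib-resistant and 48.0 ± 1.45 CPM in naive cells. LIMA1, a filament-stabilising LIM protein, rose with bortezomib resistance by 4.14 ± 0.0825.

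Of 19 other unconventional myosins, 7 rose and 9 fell with carfilzomib resistance, and 7 rose and 10 fell with bortezomib resistance (medians -0.11 and -0.16). MYO7A and MYO15A, which share with MYO10 a tail of MyTH4 and FERM domains, both fell. MYO7A stood at 0.5001 ± 0.0778 CPM in carfilzomib-resistant, 0.0747 ± 0.0175 CPM in bortezomib-resistant and 15.1 ± 1.03 CPM in naive cells, and MYO15A at 0.107 ± 0.0179 CPM in carfilzomib-resistant, 0.213 ± 0.0354 CPM in bortezomib-resistant and 1.26 ± 0.0702 CPM in naive cells. MYO7B, the MyTH4-FERM myosin of microvilli, rose to 16.6 ± 0.122 CPM in carfilzomib-resistant and 45.9 ± 0.882 CPM in bortezomib-resistant cells against 0.154 ± 0.0468 CPM in naive cells. MYO6, which walks towards the pointed end, stood at 0.203 ± 0.0546 CPM in carfilzomib-resistant, 234 ± 11.5 CPM in bortezomib-resistant and 2.49 ± 0.418 CPM in naive cells. MYO3B stood at 17.6 ± 0.574 CPM in carfilzomib-resistant, 0.425 ± 0.127 CPM in bortezomib-resistant and 0.640 ± 0.0846 CPM in naive cells.

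Of 19 LIM and palladin relatives, 9 rose and 5 fell with carfilzomib resistance, and 6 rose and 9 fell with bortezomib resistance (medians 0.08 and -0.70). PDLIM1, a PDZ and LIM protein of stress fibres, fell in bortezomib-resistant cells to 0.910 ± 0.117 CPM against 81.1 ± 1.502 CPM in naive cells, and FHL1 rose there to 196 ± 7.10 CPM against 61.6 ± 1.28 CPM. Of 28 turnover genes, 18 rose and 6 fell with carfilzomib resistance, and 14 rose and 10 fell with bortezomib resistance (medians 0.24 and 0.14). CAP2, a cyclase-associated actin recycling protein, rose in carfilzomib-resistant cells to 14.5 ± 0.652 CPM against 1.36 ± 0.324 CPM in naive cells, and CORO1A, the coronin of blood cells, fell in bortezomib-resistant cells to 141 ± 9.71 CPM against 405 ± 45.6 CPM.

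Of 25 branching genes, 10 rose and 9 fell with carfilzomib resistance, and 10 rose and 12 fell with bortezomib resistance (medians 0.08 and -0.10). WASF1, a WAVE subunit that activates the Arp2/3 complex, rose in both, to 15.9 ± 0.755 CPM in carfilzomib-resistant and 17.4 ± 0.807 CPM in bortezomib-resistant cells against 2.16 ± 0.198 CPM in naive cells. Of 22 genes around MAP4K4, 15 rose and 3 fell with carfilzomib resistance, and 8 rose and 6 fell with bortezomib resistance (medians 0.64 and 0.09), and with library size alone 14 rose with bortezomib resistance. MAPK9, a JNK gene, rose to 56.8 ± 2.35 CPM in carfilzomib-resistant and 86.9 ± 1.02 CPM in bortezomib-resistant cells against 26.0 ± 0.272 CPM in naive cells.

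**Figure D5:**
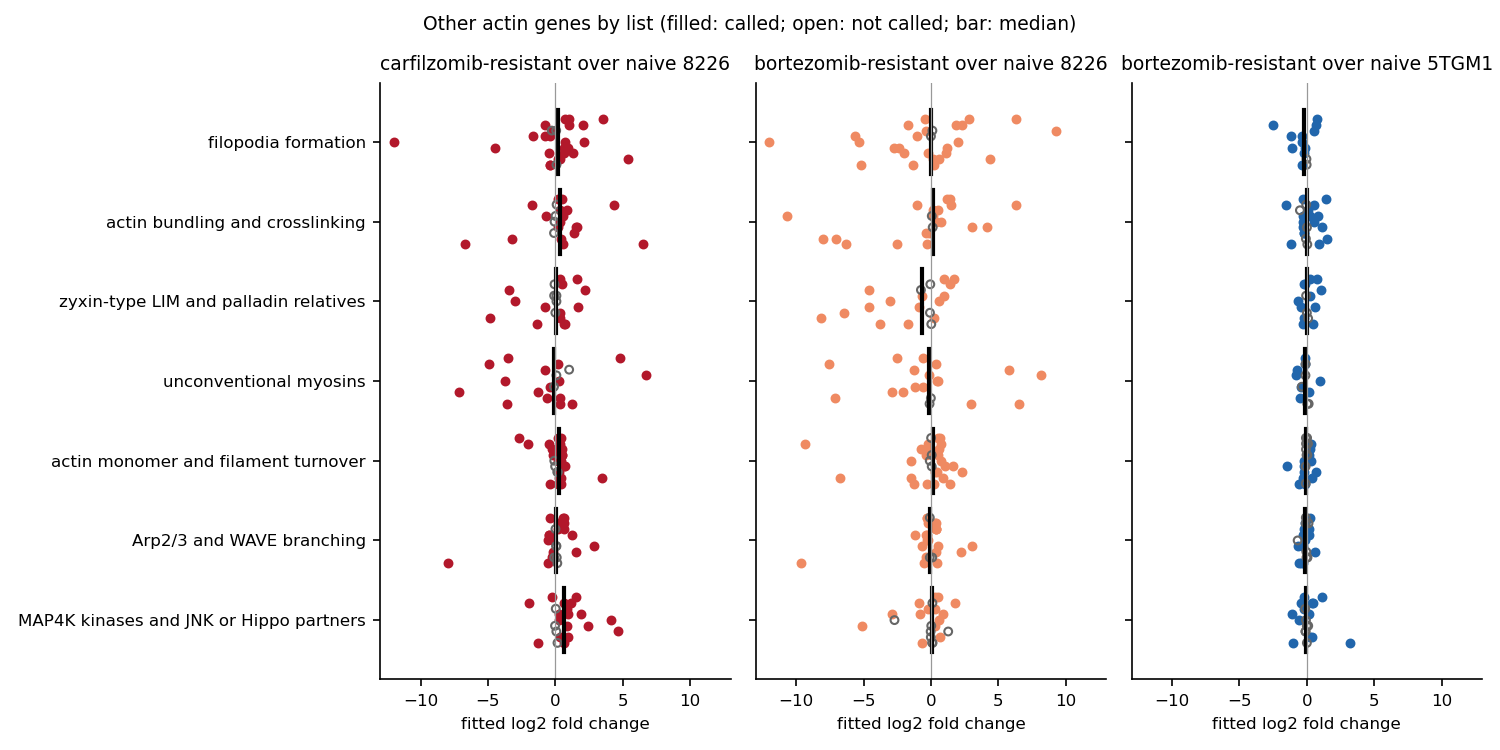
Fitted log2 fold change, resistant over naive, of the genes of the 7 lists in carfilzomib-resistant 8226, bortezomib-resistant 8226 and bortezomib-resistant 5TGM1. The list of MAP4K kinases and JNK or Hippo partners is not one of actin genes. Filled points were called, open points were not, and bars are list medians, which lie between -0.70 and 0.64 while single genes in 8226 reach beyond 5 in both directions; genes with 0 counts in a group are drawn at their fitted value.

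In 5TGM1, 130 genes of the same lists were tested, of which 37 rose and 53 fell (69.2% called, beside 67.2% of all genes) with a median of -0.07, and none changed 16-fold. Lcp1, the plastin of blood cells, fell to 191 ± 9.27 CPM in resistant against 569 ± 29.3 CPM in naive cells (-1.57 ± 0.0482). Vcl, encoding vinculin, fell by 1.07 ± 0.0544. Pls1, a plastin of microvilli, rose by 0.89 ± 0.0470 and Myo6 by 0.95 ± 0.0609. Wwtr1, which encodes the Hippo effector TAZ, rose to 12.0 ± 0.781 CPM in resistant against 1.34 ± 0.172 CPM in naive cells (3.18 ± 0.0966). Myo7a was at 25.9 ± 2.07 CPM in resistant and 23.2 ± 1.59 CPM in naive 5TGM1.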

How the data were processed

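The authors deposited, for each of the 15 libraries, a table of whole-number read counts per gene symbol in the layout STAR writes. Per the submitters' processing notes the tool was STAR (version not given in the sources used here), with mm10 and GRCm38, and hg19 and GRCh37, listed as builds but not tied to files. Of the 3 count columns, column 4 was used, since 1.43% to 2.12% of stranded gene reads lay in the other stranded column, though the labels name no kit that marks strand. The first 4 rows of each table were left out. They hold totals of reads that were unmapped, mapped to several places, outside genes or ambiguous between genes. Reads mapping to several places, 8.95% to 10.9% of human and 15.3% to 16.3% of mouse reads, were set aside by the counting.

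Groups and replicate numbers came from the sample titles. Per line, counts were filtered with filterByExpr, scaled by TMM and tested with edgeR 4.0.16 (quasi-likelihood F test, Benjamini-Hochberg adjustment, called at 0.05) in R 4.3.3, with all 9 human libraries in a shared fit. The difference between lines was an interaction contrast over symbols matched ignoring case. SEs were derived from the F statistic, and the script was tested on simulated data. A count of 0 was bounded by 3 counts over the group, the limit at 95% confidence. No library was a repeat of another (chi-square per degree of freedom within groups of 3.98 to 25.8).

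The members and all gene lists were chosen with earlier results of these data known. All 8 members are named; of each list, the genes named come from the 3 called ones with the largest change that reach 10 CPM in the higher group, plus close relatives of the members fixed by name. A few genes that meet these rules are not reported here. Neighbour order came from RefSeq on GRCh38. Alternatives were DESeq2 1.42.0, its size factors, library size alone, no filter, counts without regard to strand, a replicate block, only the 6 libraries compared, and leaving out each library.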

Additional observations from a re-analysis of the deposited data

Results flagged for a closer look

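A test of the difference between the lines in their change with bortezomib resistance passed for 6 members (edgeR's interaction contrast, adjusted over all matched genes). The members were picked with their levels in these libraries known, so the test lends no support and the differences are descriptions. The difference, 8226 minus 5TGM1 on the log2 scale, was 7.51 for PALLD, 7.37 for MAP4K4, 5.60 for LPP and 0.71 for VASP. It was -13.51 for MYO10 and -6.60 for ENAH, where bortezomib-resistant 8226 had 0 counts and the size depends on the fit. The lines differ in species and in the dose of bortezomib as well, which cannot be told apart from the line, and 64.9% of all matched genes passed the same test.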

How the results depend on the processing

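Of 574 recomputed changes of members, 565 kept their direction and their side of the threshold, 332 of them with 1 library left out and 233 under other settings. Signs turned only in changes that were not called. In 5TGM1, Map4k4 was at -0.00279 with DESeq2's size factors, -0.00286 with DESeq2's Wald test, and -0.0279 without naive replicate 1, with a range of -0.0279 to 0.0358 over left-out libraries. Palld ranged from -0.373 to 0.0780, the highest without resistant replicate 1. EVL with carfilzomib resistance was at -0.131 with counts taken without regard to strand. Under that count EVL's difference between the lines was called (2.84). Replicate numbers were not used to pair libraries in the main fit. Same-numbered deviations correlated at -0.335 to 0.415, over 0.1 in 2 of 12 pairs. Both of these lay between bortezomib-resistant and naive 8226, at 0.137 for replicate 2 and 0.415 for replicate 3. Whether those libraries shared handling was not tested. With the replicate number as a block, 9986 genes were called with carfilzomib resistance, 11094 with bortezomib resistance in 8226, 10709 between the resistant lines, 7716 in 5TGM1 and 7667 for the difference between lines, each within 1.5 times the count without it. In the mouse myosin list 2 rose and 6 fell, but 3 fell without resistant replicate 3, and 1 rose without naive replicate 1, naive replicate 3 or resistant replicate 1, with the block and with DESeq2. Depth limits FSCN1, EVL and Palld, whose values rest on few counts.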
